A study of Mus musculus with 6 samples.

Results

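The protocadherin genes were taken as all genes of the PRO-seq table whose symbol starts with Pcdh, which gave 52 of the 14546 listed genes. Of these, 42 belong to clusters on chromosome 18, namely 21 beta genes (Pcdhb2 to Pcdhb22) and 21 gamma genes (the Pcdhga, Pcdhgb and Pcdhgc series), and 10 stand alone. The alpha cluster and a few further members of the family were not analysed here. The libraries come from muscle stem cells (MuSCs, the Pax7-positive satellite cells of skeletal muscle) that were purified from mice and grown in culture, so that they proliferated. Both groups carried the Pax7CreERT transgene, a tamoxifen-dependent Cre recombinase driven by Pax7. Ctrl libraries came from cells with the intact Kmt5b gene (labelled Suv4-20h1 WT) and Kmt5b sKO libraries from cells in which the floxed gene had been deleted (labelled Suv4-20h1 KO), with 3 libraries in each group. Tamoxifen was given to adult C57BL/6 mice, so the deletion is limited to cells in which Pax7 drives the Cre. PRO-seq maps RNA polymerases that are engaged in transcription by sequencing the RNA they extend in a nuclear run-on. The question was how polymerase density over the protocadherin genes compared between the groups, and how clustered and single members differed.

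Protocadherins are cadherin-type adhesion proteins of the cell membrane. In the clusters, each gene begins with its own promoter and a large exon that encodes the whole outer part of the protein, and in neurons a few promoters are chosen at random in each cell, which gives cells different surface identities. The gamma genes are joined by splicing to shared last exons that encode a common inner part, whereas a beta gene is complete within its own exon. The C-type genes at the end of the gamma cluster, Pcdhgc3, Pcdhgc4 and Pcdhgc5, are known to be used in a more regular way than the others. KMT5B methylates histone H4 at lysine 20.

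The TSS region is the first 400 nt of a gene, and its value is in RPM, the reads of that region scaled to the total over all TSS regions. The gene body is the remainder, and its value is in TPM, which is also scaled for length. The 6 libraries held 926904 to 3246052 reads in TSS regions and 7425426 to 16249086 reads in gene bodies, with the lowest totals in Kmt5b sKO replicate 2. Kmt5b itself was not lower in the Kmt5b sKO libraries (TSS region 93.7, 87.3 and 102 RPM in the Ctrl libraries against 120, 107 and 113 RPM in Kmt5b sKO). The deleted exons are not given in the sources used here, so these values do not check the labels. All 8 markers of muscle stem cells and myoblasts were tested, none was called in either direction, and their summed gene body value was 1617 to 2326 TPM in the Ctrl libraries against 2094 to 2804 TPM in Kmt5b sKO. Of 6 neuronal markers, 3 were listed, namely Rbfox3, Elavl3 and Elavl4, and each was under 1 TPM in the gene body in every library. At the TSS region Rbfox3 was at 0 in every library, Elavl3 had 0 to 4.60 RPM and Elavl4 had 0 to 3.96 RPM. Of the 5 Schwann cell markers, 3 were tested and Sox10 was called higher in Kmt5b sKO (gene body 2.14 to 4.10 TPM in the Ctrl libraries against 8.14 to 15.5 TPM in Kmt5b sKO), and the summed value of the 5 was 9.24 to 12.2 TPM in the Ctrl libraries against 16.7 to 26.9 TPM in Kmt5b sKO. No Schwann marker was at 0 in all libraries, and their part in the results on protocadherins was not tested. The labels number the libraries of each group without naming animals, while the study calls them biological replicates, and p-values measure the spread between these libraries.

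The beta genes are arrayed along chromosome 18 (GRCm38, plus strand) between 37294812 and 37521145, and the gamma genes on the same strand between 37661793 and 37841873. In the GENCODE vM21 annotation, 20 of the 21 listed beta transcripts have a single exon, and the gene body of these genes is wholly exonic. Each listed gamma transcript has 4 exons, and only 2.39 to 19.8% of its gene body is exonic. The TSS region reached into coding sequence in 20 beta and 19 gamma genes. In the window from 250 bases before to 50 bases after the listed start, clustered genes held a median of 6 CpG dinucleotides (range 0 to 26), against 19 over all listed genes and 19 in the single protocadherins. The motif CGCT, the core of a conserved element known from clustered protocadherin promoters, was found on either strand in 41 of 42 clustered windows, against 84.6% of all listed windows, 58.0% of the listed windows with at most 12 CpG and 10 of the 10 single protocadherins. On the strand of the gene, and between 110 and 10 bases before the start, it was found in 35 of the 42 clustered windows (17 beta and 18 gamma), in 5 of the 10 single protocadherins, in 36.8% of all listed windows and in 16.3% of those with at most 12 CpG. This stretch was set after the positions in the clustered genes had been seen. Pcdhga12, with no CpG in its window, was the clustered gene without a match. Related genes share sequence, and the authors kept 1 random position for a read that matched several, so some reads may be assigned to a neighbour. Of all runs of 36 bases in a beta gene body, a median of 8.80% (range 4.19 to 18.5%) occurred again within the searched 889 kb around the clusters. The TSS regions of 14 beta and 12 gamma genes held no such run, and the highest share was 37.3%, in Pcdhgb5.

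Over the beta cluster, gene body density was higher in Kmt5b sKO than in Ctrl, and 2 beta genes, Pcdhb5 and Pcdhb21, passed the test. The density of all 21 beta gene bodies together was 2.79, 4.04 and 3.27 TPM in the Ctrl libraries and 5.83, 5.29 and 6.15 TPM in the Kmt5b sKO libraries, a ratio of means of 1.71. The groups did not overlap. Mean gene body density was higher in Kmt5b sKO in 20 of the 21 beta genes. The exception, Pcdhb8, had 1.40, 1.80 and 1.91 TPM in the Ctrl libraries against 0, 1.56 and 1.43 TPM in Kmt5b sKO. All Kmt5b sKO libraries lay above all Ctrl libraries in 13 beta genes (Pcdhb2, Pcdhb3, Pcdhb5, Pcdhb6, Pcdhb7, Pcdhb11, Pcdhb12, Pcdhb16, Pcdhb18, Pcdhb19, Pcdhb20, Pcdhb21 and Pcdhb22), which is 61.9% of the family. Over all 14546 listed genes this held for 13.0%, and over the 7002 other genes whose mean gene body level fell in the range of the beta genes, 0.762 to 15.3 TPM, for 14.3%. These genes were matched on TPM and not on reads. A beta gene body held a median of 8 reads over genes and libraries. Pcdhb2, for example, had 0, 2 and 4 gene body reads in the Ctrl libraries against 4, 4 and 3 in Kmt5b sKO. The Schwann cell markers and the endothelial markers moved with the difference of the beta genes. Pecam1 and Cdh5, the 2 of 5 endothelial markers listed, had a summed value of 1.83 to 2.96 TPM in the Ctrl libraries against 3.74 to 4.05 TPM in Kmt5b sKO, and the part of either cell type in the beta genes was not tested. In bulk libraries such as these, more cells with an active gene and more polymerases per cell cannot be told apart.

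Pcdhb5 had 1.31, 1.40 and 1.79 TPM in its gene body in the Ctrl libraries against 3.16, 3.90 and 3.01 TPM in Kmt5b sKO. The log2 difference, on the scale of log2(value + 0.5), was 0.95 with a standard error of 0.20 (adjusted p = 0.0845, limma). Pcdhb21, near the far end of the cluster, had 9.05, 10 and 8.13 TPM in the Ctrl libraries against 16.5, 17.4 and 12.7 TPM in Kmt5b sKO. Its log2 difference was 0.74 with a standard error of 0.17 (adjusted p = 0.0992, limma), just inside the threshold of 0.1. Both calls were near that threshold and were lost when single libraries were left out: Pcdhb21 without any 1 of the 6, and Pcdhb5 without any 1 of them except Ctrl replicate 3. Without Ctrl replicate 1 or any 1 Kmt5b sKO library, 0 of all 12451 tested genes were called in the gene body. Neither Pcdhb5 nor Pcdhb21 was called by edgeR or DESeq2 on recovered reads. Over the 41 members tested, 3 were called in the gene body, all of them higher in Kmt5b sKO, where 2.99% of all 12451 tested genes were called and 1.61% were called higher. Of the 5 beta genes that were not tested because of low means, all had a higher mean gene body value in Kmt5b sKO. The median log2 difference of the 16 tested beta genes was 0.72, with 15 above 0, beside 0.02 over all tested genes. This median stayed between 0.57 and 0.86 under every other setting that used the same 16 genes.

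The density also climbed along the beta cluster. Mean gene body values over the 6 libraries ran from 0.762 TPM to 15.3 TPM, and the rank correlation with the order of the genes was 0.90 over the 21 genes, which share the same libraries. Pcdhb2 to Pcdhb14 together had 0.897, 1.60 and 1.10 TPM in the Ctrl libraries against 2.6, 2.61 and 2.42 TPM in Kmt5b sKO, a ratio of means of 2.12. Pcdhb15 to Pcdhb22 together had 5.39, 7.39 and 6.25 TPM in the Ctrl libraries against 10.3, 8.96 and 11.3 TPM in Kmt5b sKO, a ratio of 1.60. Neither part of the cluster showed an overlap between the groups. The counts behind the first part were small, with 59 to 130 reads per library for all 13 genes, and no test compared the parts.

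**Figure D1:**
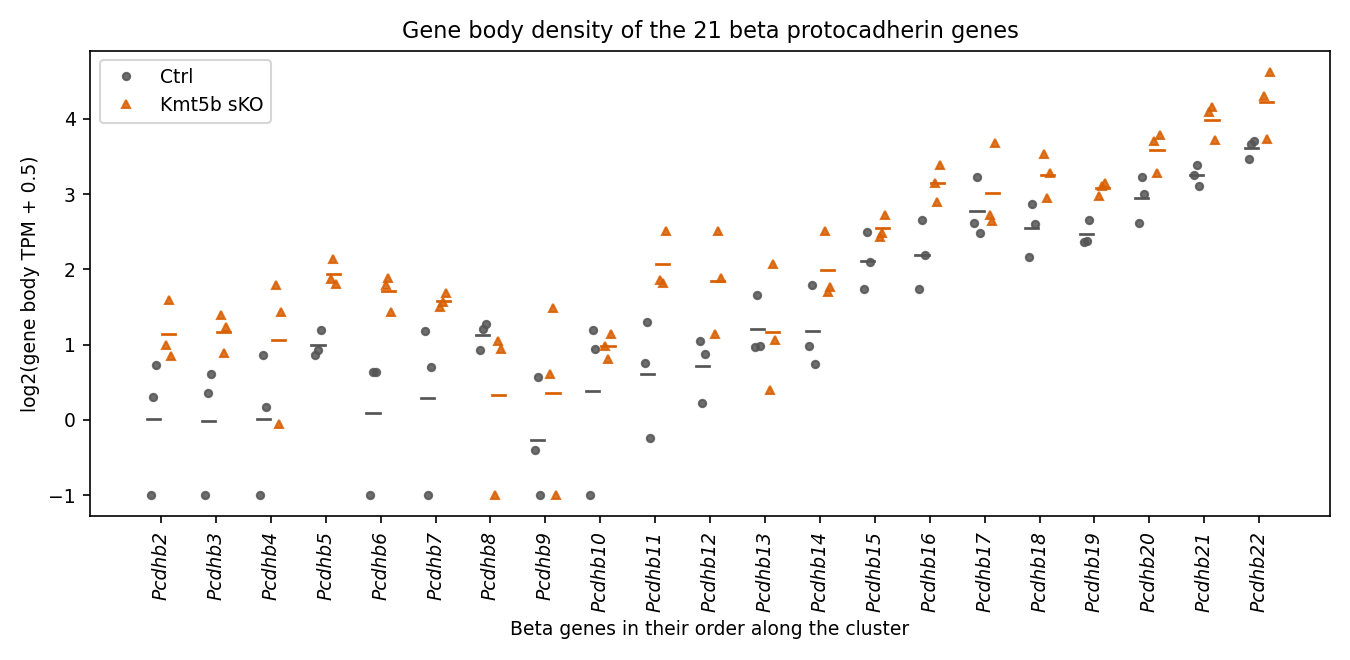
Gene body density of each beta gene on the scale of log2(TPM + 0.5), with genes in their order along the cluster, 1 point per library (3 Ctrl, 3 Kmt5b sKO) and a bar at each group mean. Values climb from Pcdhb2 to Pcdhb22, and the Kmt5b sKO points lie above all Ctrl points in 13 of the 21 genes.

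At the TSS regions of the beta genes the reads were few. All 21 regions together held 56 to 157 reads per library, which came to 20.3, 32.7 and 25.8 RPM in the Ctrl libraries against 51.4, 37.0 and 48.8 RPM in Kmt5b sKO, without overlap between the groups. The highest was Pcdhb16, with 5.08, 8.04 and 6.82 RPM in the Ctrl libraries against 15.7, 9.24 and 13.3 RPM in Kmt5b sKO. Every Kmt5b sKO library exceeded every Ctrl library, with a log2 difference of 0.88 (standard error 0.38, adjusted p = 0.369, limma). Pcdhb21 had 1.21, 4.02 and 3.98 RPM in the Ctrl libraries against 5.24, 2.64 and 7.36 RPM in Kmt5b sKO. Pcdhb17 had 1.94, 2.87 and 3.60 RPM in the Ctrl libraries against 2.95, 5.94 and 2.76 RPM in Kmt5b sKO. The groups overlapped at both genes. Pcdhb6 held no TSS read in any library, where 3 reads, the most a count of 0 allows, would be 0.568 to 1.98 RPM. No protocadherin passed the test at the TSS region, where 1.66% of all tested genes were called. There, 5 of the 41 members tested had an unadjusted p under 0.05, beside 1369 of all 12451 tested genes. On recovered reads edgeR called 1 member there, Pcdh1, and DESeq2 called 0. Apart from Pcdhb16, only Pcdhb19 among the beta genes had all Kmt5b sKO libraries above all Ctrl libraries, and none had them all below. Over all listed genes these shares were 9.40% above and 4.94% below. The median log2 difference over the 16 tested beta genes was 0.52 at the TSS region, beside 0.08 over all tested genes, and it was 0.26 after quantile normalization.

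The gamma TSS regions held more reads, and 1 gene, Pcdhgc3, accounted for 21.2 to 28.7% of all clustered signal. Pcdhgc3, the first of the C-type genes, had 46.0, 73.5 and 50.2 RPM in the Ctrl libraries against 49.5, 56.1 and 66.7 RPM in Kmt5b sKO. Its share of the summed TSS value of all clustered genes was 25.0, 27.6 and 28.7% in the Ctrl libraries against 21.2, 24.5 and 21.9% in Kmt5b sKO. The groups overlapped in level, with a log2 difference of 0.04 and a standard error of 0.24. Its window also held the most CpG of all clustered genes, 26. Pcdhga10, the next highest, had 15.7, 10.3 and 10.04 RPM in the Ctrl libraries against 11.8, 13.2 and 25.8 RPM in Kmt5b sKO. The other C-type genes were lower than Pcdhgc3 in every library. Pcdhgc4 had 10.7, 23.0 and 10.6 RPM in the Ctrl libraries against 7.54, 14.5 and 10.6 RPM in Kmt5b sKO. Pcdhgc5 had 7.02, 20.1 and 6.25 RPM in the Ctrl libraries against 15.7, 10.6 and 17.9 RPM in Kmt5b sKO. Both groups spanned each other, and the order of Pcdhga10, Pcdhgc4 and Pcdhgc5 changed from library to library.

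The lowest gamma gene was Pcdhga12, with 0.24, 2.87 and 0.38 RPM in the Ctrl libraries against 0.66, 0 and 0.92 RPM in Kmt5b sKO, which is 0 to 5 reads per library. The remaining gamma genes lay between Pcdhga12 and Pcdhga10 in their means. Pcdhga2, singled out after its values were seen, had 3.63, 4.02 and 1.70 RPM in the Ctrl libraries against 7.21, 7.92 and 12.4 RPM in Kmt5b sKO. Its log2 difference was 1.45 with a standard error of 0.46, which did not pass the test (adjusted p = 0.158, limma) except when Ctrl replicate 2 was left out (adjusted p = 0.0986, limma). Pcdhga7 also had every Kmt5b sKO library above every Ctrl library, and Pcdhga1 had them all below, at 3.39, 3.45 and 3.98 RPM in the Ctrl libraries against 2.62, 3.30 and 2.30 RPM in Kmt5b sKO. Summed over the 21 genes, the gamma TSS value was 164, 234 and 149 RPM in the Ctrl libraries against 182, 192 and 255 RPM in Kmt5b sKO, and the groups overlapped.

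**Figure D2:**
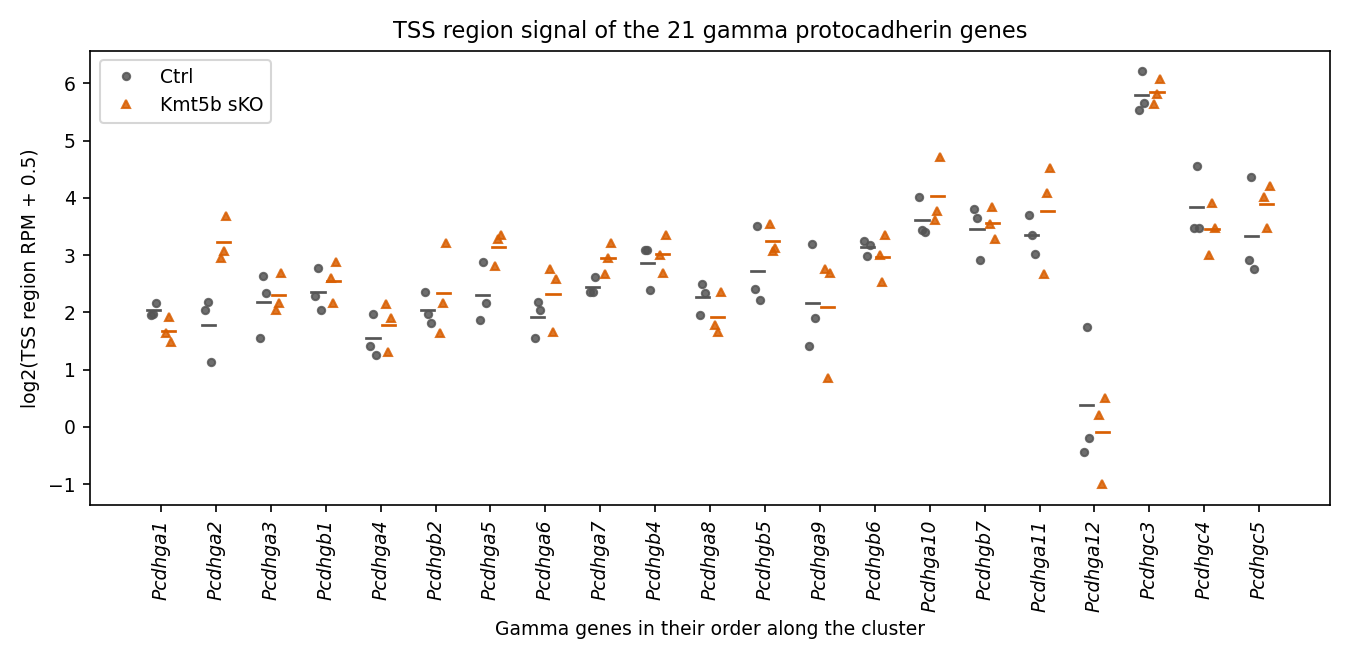
TSS region value of each gamma gene on the scale of log2(RPM + 0.5), in cluster order, 1 point per library (3 Ctrl, 3 Kmt5b sKO) and a bar at each group mean. Pcdhgc3 stands above all others and Pcdhga12 below them, and the groups overlap at most genes.

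The gene body values of the gamma genes could not be read gene by gene, because the listed bodies are nested. All of them run to the same end, and for Pcdhga1 96.0% of the body is also counted in that of its neighbour Pcdhga2. Whole bodies therefore gave nearly one value, 33.4, 34.6 and 36.2 TPM for Pcdhga1 in Kmt5b sKO beside 30.4, 34.1 and 31.2 TPM in Ctrl, with log2 differences between -0.01 and 0.12 over the 21 genes and no call. Subtracting the reads of the next body left a stretch from 400 nt after a gene's own start to 400 nt after the next one. It is called the own stretch here, but it includes the next gene's TSS region. It also lies within the listed bodies of all gamma genes before it. Polymerases from earlier starts therefore cannot be told apart from those of the gene itself. These stretches held 29 to 2877 reads per library.

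In the first part of the gamma cluster the stretches were denser in Kmt5b sKO. From Pcdhga1 to Pcdhga8, over 11 stretches and 69.2 kb, the density was 11.4, 11.3 and 12.6 TPM in the Ctrl libraries against 15.3, 16.3 and 16.3 TPM in Kmt5b sKO, a ratio of means of 1.36. From Pcdhgb5 to Pcdhga12, over 7 stretches and 75.4 kb, it was 22.5, 22.4 and 26.3 TPM in the Ctrl libraries against 26.4, 27.7 and 27.4 TPM in Kmt5b sKO, a ratio of 1.15. The groups were apart in both parts, in the second by less than the range within Ctrl. From Pcdhgc3 to the shared end, over 3 stretches and 35.1 kb, it was 85.1, 104 and 78.6 TPM in the Ctrl libraries against 84.0, 85.7 and 94.4 TPM in Kmt5b sKO, and the groups overlapped.

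Taken singly, 8 stretches (Pcdhgb1, Pcdhga4, Pcdhgb2, Pcdhga5, Pcdhga6, Pcdhga7, Pcdhgb4 and Pcdhga8) had all Kmt5b sKO libraries above all Ctrl libraries and none had them all below, against the 13.0% above and 8.70% below among all listed gene bodies. Pcdhga4 had 8.52, 5.70 and 6.69 TPM in its own stretch in the Ctrl libraries against 9.38, 14.1 and 14.4 TPM in Kmt5b sKO, a log2 difference of 0.80 with a standard error of 0.22 (adjusted p = 0.141, limma). Pcdhgb2 had 14.2, 14.3 and 17.0 TPM in the Ctrl libraries against 20.7, 25.5 and 27.5 TPM in Kmt5b sKO, a log2 difference of 0.67 with a standard error of 0.16 (adjusted p = 0.103, limma). When the fit over all tested genes was repeated with the stretches in place of the nested bodies, no gamma gene was called and 8 of the 21 had an unadjusted p under 0.05, beside 0 with whole bodies. In the fit with whole bodies, 1981 of all 12451 tested genes had an unadjusted p under 0.05. With Ctrl replicate 3 left out, 3 stretches were called, those of Pcdhga2, Pcdhga3 and Pcdhgb2 (adjusted p of 0.0641 to 0.0860, limma). That fit called 840 of all tested genes. Without any other single library, 0 stretches were called. The fits without Ctrl replicate 1 or any 1 Kmt5b sKO library called 0 of all tested genes. The number of gamma genes at an unadjusted p under 0.05 was 4 to 9 in the fits with 1 library left out. The median log2 difference of the gamma genes was 0.31 with stretches and 0.07 with whole bodies. It was 0.27 with stretches after quantile normalization and 0.29 with edgeR on recovered reads.

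Density climbed along the gamma cluster too, as it did over the beta genes. Group means of the own stretches went from 5.51 TPM in the Ctrl libraries against 7.92 TPM in Kmt5b sKO at Pcdhga1 to 41.7 and 46.1 TPM at Pcdhgb7. After Pcdhgb7 the density dropped, to 18.9 TPM in the Ctrl libraries against 22.0 TPM in Kmt5b sKO over the 40830 nt that follow the listed start of Pcdhga12, and at Pcdhgc3 it stepped up to 92.0 and 89.3 TPM. Where a TSS region was set beside the stretch before it, that stretch was counted only up to the gene's listed start. The TSS region of Pcdhgc3 held more reads per kb than the stretch before it in all 6 libraries, with a median ratio of 19.5. A TSS region denser than the stretch before it was found in all 6 libraries in 13 of the 20 gamma genes with a neighbour before them. Pcdhga12 was denser at its start in 0 of the 6 libraries, Pcdhgc4 in 2 and Pcdhgc5 in 2.

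**Figure D3:**
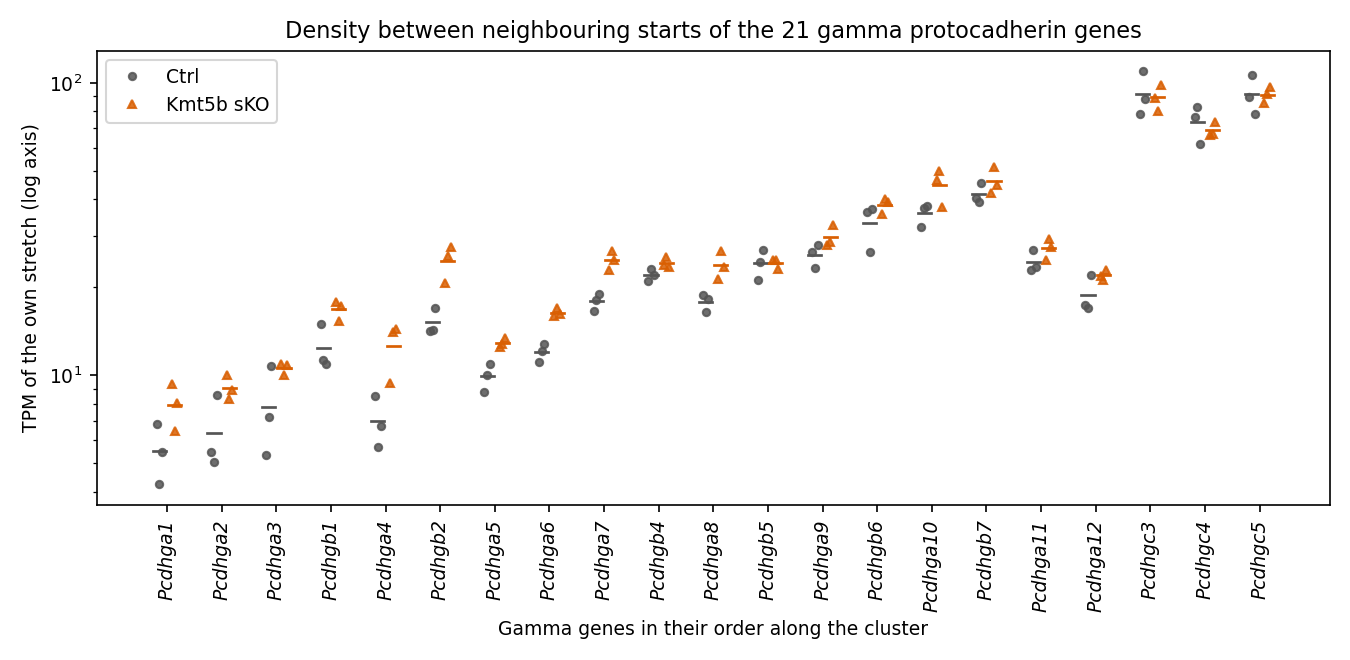
Density of the own stretch of each gamma gene, in TPM on a log axis, in cluster order, 1 point per library (3 Ctrl, 3 Kmt5b sKO) and a bar at each group mean. A stretch includes the next gene's TSS region and lies within the listed bodies of all gamma genes before it. The groups stand apart from Pcdhgb1 to Pcdhga8 and overlap from Pcdhgb5 on, and the C-type genes form the highest step.

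**Figure D4:**
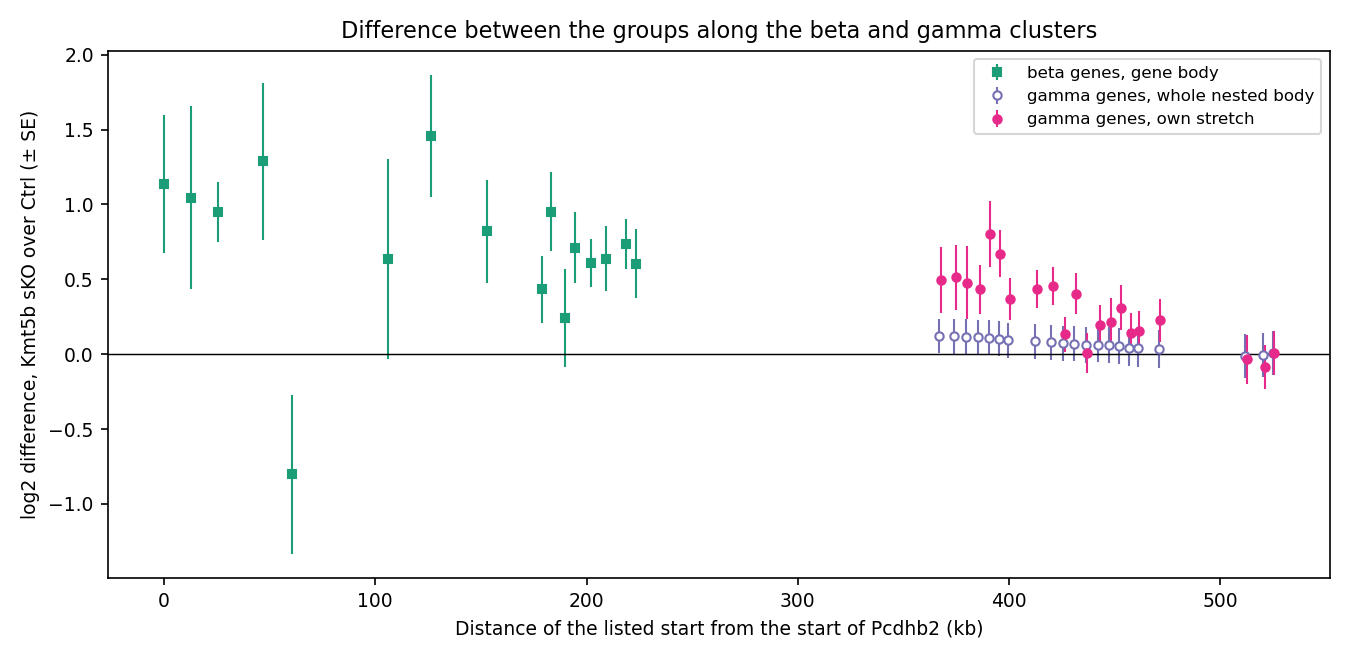
Log2 difference of Kmt5b sKO over Ctrl from limma (error bars, SE) against the distance of each listed start from that of Pcdhb2, for the tested beta gene bodies, the whole nested gamma bodies and the own stretches of the gamma genes. Differences of the own stretches are highest at Pcdhga4 (0.80) and lie near 0 at the 3 C-type genes, while whole bodies stay between -0.01 and 0.12.

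At the TSS region, the median changes of clustered and single genes differed by less than the spread of that difference between libraries. The median log2 difference was 0.37 over the 37 tested clustered genes and 0.40 over the 4 tested single genes, beside 0.08 over all tested genes. The clustered and single medians differed by -0.03 (SD of this difference between libraries 0.36). The summed TSS value of the clustered genes was 184, 267 and 175 RPM in the Ctrl libraries against 233, 229 and 304 RPM in Kmt5b sKO. That of the 10 single genes was 107, 104 and 90.7 RPM in the Ctrl libraries against 131, 111 and 108 RPM in Kmt5b sKO. The single sum did not overlap between the groups, but without Pcdh1 it did, at 79.6 to 94.8 RPM in the Ctrl libraries against 79.2 to 102 RPM in Kmt5b sKO.

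The pausing index divides the value at the TSS region by that of the gene body, so a gene with reads gathered near its start has a high index. Among genes for which it could be formed, the median index was 0.346 over the beta genes, 2.06 over the single genes and 1.59 over the 11698 genes in the fit of the index. For the gamma genes it was 0.143 with whole bodies and 0.318 with own stretches, and Pcdhgc3 had 0.639 and 0.627 on these scales. Pcdhb16 had the highest index of the clustered genes, 1.57 on average. No member and no other gene was called for a change of the index (0%), and 1 of the 32 members in the fit, Pcdhga2, and 452 genes in all had an unadjusted p under 0.05. The median log2 change of the index was -0.04 over 8 beta genes, 0.13 over 20 gamma genes and 0.18 over 4 single genes, beside 0.05 over all genes.

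The single genes were of 3 kinds in these cells: active along the listed isoform, read near the start but hardly beyond, and near 0. Pcdh7, which is known as a partner of the phosphatase inhibitor SET, and Pcdh18 were active. The listed Pcdh7 isoform lies on chromosome 5 from 57718020 to 57729465, and its TSS region had 31.0, 29.9 and 22.4 RPM in the Ctrl libraries against 32.5, 27.7 and 30.8 RPM in Kmt5b sKO. Its gene body had 35.4, 37.5 and 34.9 TPM in the Ctrl libraries against 37.7, 29.9 and 32.7 TPM in Kmt5b sKO. Pcdh18, on chromosome 3 from 49743296 to 49757316, had 31.5, 32.2 and 24.1 RPM in the Ctrl libraries against 23.3, 20.5 and 28.5 RPM in Kmt5b sKO, and in the gene body 29.0, 29.2 and 31.1 TPM in the Ctrl libraries against 35.1, 33.6 and 22.9 TPM in Kmt5b sKO. The groups overlapped in both regions of both genes, with log2 differences of -0.28 to 0.14 and standard errors of 0.13 to 0.27.

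Pcdh17, on chromosome 14 from 84443563 to 84537060, had 10.4, 4.60 and 12.5 RPM at its TSS region in the Ctrl libraries against 11.2, 17.8 and 12.9 RPM in Kmt5b sKO. Its gene body had 0.54, 0.66 and 0.20 TPM in the Ctrl libraries against 0.71, 0.30 and 0.87 TPM in Kmt5b sKO. Its pausing index of 6.97 to 62.5 was far above the 0.609 to 1.24 of Pcdh18 in every library. The groups overlapped in both regions. The 250 bases before the listed starts of Pcdh18 and Pcdh17 are shown, from RefSeq's GRCm38 sequence and 5′ to 3′ on the strand of the gene, because polymerase signal ran on into the gene body in one and hardly in the other. Capitals mark the CpG dinucleotides, of which there are 23 and 21.
Pcdh18 (chr3:49757317-49757566, minus strand): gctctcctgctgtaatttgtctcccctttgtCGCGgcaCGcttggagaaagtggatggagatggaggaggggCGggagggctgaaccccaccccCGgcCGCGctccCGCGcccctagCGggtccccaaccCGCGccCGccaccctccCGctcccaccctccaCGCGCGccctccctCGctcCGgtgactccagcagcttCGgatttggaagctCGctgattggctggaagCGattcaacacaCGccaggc
Pcdh17 (chr14:84443313-84443562, plus strand): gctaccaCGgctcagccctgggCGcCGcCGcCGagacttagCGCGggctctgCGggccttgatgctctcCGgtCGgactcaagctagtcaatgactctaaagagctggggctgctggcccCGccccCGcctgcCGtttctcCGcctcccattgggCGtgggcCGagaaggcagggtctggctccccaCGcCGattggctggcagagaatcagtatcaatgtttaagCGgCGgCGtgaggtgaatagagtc
Both windows held many CpG beside the median of 6 in the slightly longer windows of clustered genes, and their CpG counts were close to each other.

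Of the single genes on autosomes, Pcdh10, Pcdh8, Pcdh20 and Pcdh9 did not pass the filter on low values. Pcdh10, a protocadherin of the nervous system, had 0.73, 2.87 and 2.65 RPM at the TSS region in the Ctrl libraries against 3.28, 0 and 1.38 RPM in Kmt5b sKO, and its gene body was at 0 in 5 of the 6 libraries. Pcdh8 had 0 to 1.64 RPM at the TSS region and a gene body of 0 in all 6 libraries, where 3 reads would be 0.496 to 1.11 TPM. Pcdh20 had 0 to 1.32 RPM at the TSS region and 0.67, 1.07 and 0 TPM in the gene body in the Ctrl libraries against 3.52, 0.37 and 3.08 TPM in Kmt5b sKO. Pcdh9, whose listed body of 876567 nt is the longest of the family, had 0 to 1.15 RPM at the TSS region and 0.15, 0.12 and 0.15 TPM in the gene body in the Ctrl libraries against 0.35, 0.33 and 0.35 TPM in Kmt5b sKO. Pcdh9 was the single gene outside the tested set whose groups did not overlap in the gene body, and they overlapped at its TSS region. On the X chromosome, Pcdh19, known for an epilepsy in girls, had 13.6, 22.4 and 13.5 RPM at its TSS region in the Ctrl libraries against 28.2, 9.24 and 14.7 RPM in Kmt5b sKO, with 4.47, 10.9 and 9.11 TPM and 9.91, 8.55 and 7.80 TPM in the gene body. Pcdh11x had 3.87, 1.15 and 3.79 RPM in the Ctrl libraries against 0.98, 1.98 and 0.46 RPM in Kmt5b sKO, and at most 0.21 TPM in the gene body. The groups overlapped at both X-linked genes.

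**Figure D5:**
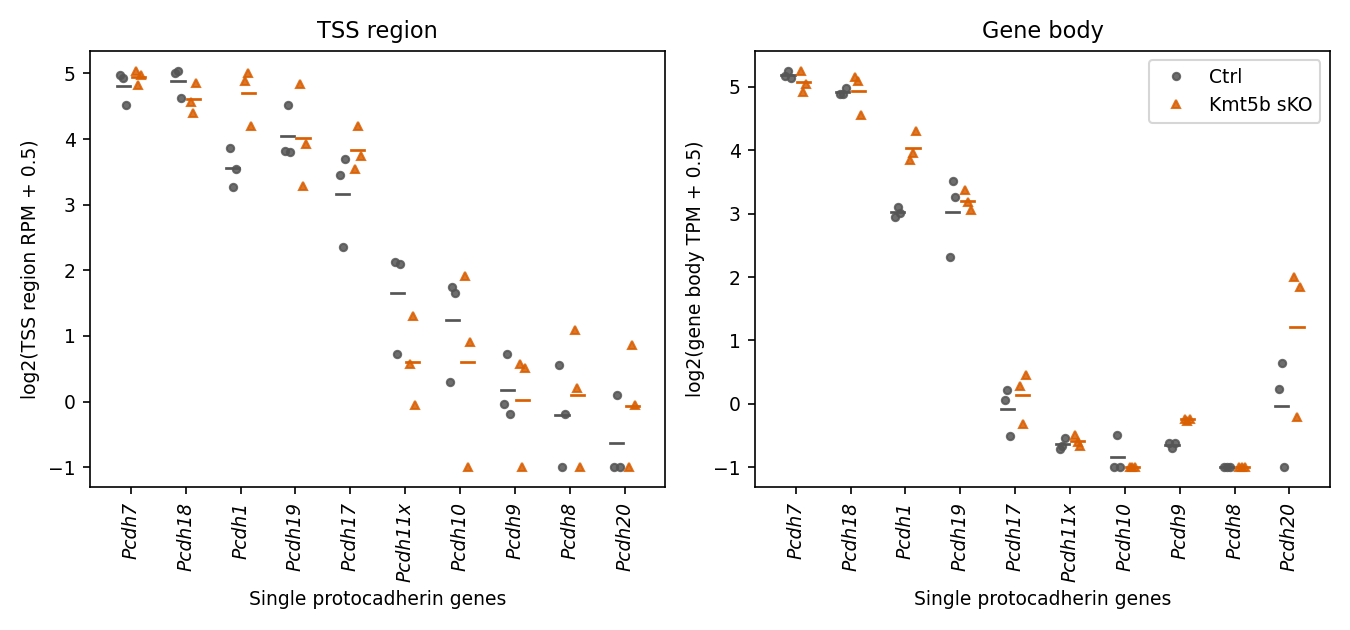
TSS region values on the scale of log2(RPM + 0.5) and gene body values on the scale of log2(TPM + 0.5) of the 10 single genes, ordered by mean TSS value, 1 point per library (3 Ctrl, 3 Kmt5b sKO) and a bar at each group mean. Pcdh1 is the gene whose groups stand apart in both panels, and Pcdh17 has TSS signal with little in the gene body.

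Pcdh1, known from the airway epithelium and as an entry factor of hantaviruses, rose in Kmt5b sKO. It lies on the minus strand of chromosome 18 from 38185914 to 38212053, 344 kb beyond the end of the gamma cluster. Its gene body had 7.25, 8.12 and 7.53 TPM in the Ctrl libraries against 13.8, 15.01 and 19.3 TPM in Kmt5b sKO. All Kmt5b sKO libraries were above all Ctrl libraries, and the log2 difference of 1.01 with a standard error of 0.16 was the most strongly supported of all members (adjusted p = 0.0655, limma). The TSS region had 14.04, 9.19 and 11.2 RPM in the Ctrl libraries against 29.2, 31.7 and 17.9 RPM in Kmt5b sKO. The groups were apart there as well, with a log2 difference of 1.14 and a standard error of 0.32, which did not reach the threshold (adjusted p = 0.107, limma). Its pausing index had a log2 difference of 0.12 with a standard error of 0.37. The gene body call held with edgeR and with DESeq2 on recovered reads, but not when Ctrl replicate 1 or a single Kmt5b sKO library was left out. With any of these libraries left out, 0 of all 12451 tested genes were called in the gene body. In those fits the log2 difference of Pcdh1 was 0.87 to 1.11 (adjusted p of 0.160 to 0.215, limma).

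Genes known to act on the clusters gave no call. Of 25 such regulators, all listed and 21 tested, 0 were called in limma at the TSS region or in the gene body, with 2 and 4 at an unadjusted p under 0.05. Smchd1, which silences clustered protocadherins in mice, had a gene body value of 15.4, 15.3 and 14.9 TPM in the Ctrl libraries against 11.7, 13.9 and 10.1 TPM in Kmt5b sKO (adjusted p = 0.316, limma). Ctcf, whose product loops protocadherin promoters to enhancers, had 35.0, 32.4 and 30.1 TPM in the Ctrl libraries against 25.2, 26.6 and 26.0 TPM in Kmt5b sKO (adjusted p = 0.256, limma). Stag1, a cohesin subunit, had 18.9, 20.1 and 19.8 TPM in the Ctrl libraries against 14.5, 15.5 and 13.7 TPM in Kmt5b sKO (adjusted p = 0.156, limma). In all, 7 of the 25 regulators had every Kmt5b sKO library below every Ctrl library in the gene body, and 0 had them all above. These 7 were Ctcf, Dnmt1, Setdb1, Smc1a, Smchd1, Stag1 and Stag2. Over all listed genes the shares were 8.70% below and 13.0% above. Of the 7, Smc1a and Stag2 were not tested, and none of the others passed the test. At the TSS region 3 regulators had every Kmt5b sKO library below every Ctrl library and 1 had them all above. There the shares over all listed genes were 4.94% below and 9.40% above. Among other cadherins, 25 of 46 were listed, 13 were tested and 0 were called, with 4 in each region at an unadjusted p under 0.05 and a gene body median log2 difference of 0.41. All Kmt5b sKO libraries lay above all Ctrl libraries in the gene body in 8 of the 25 listed cadherins and below in 0. This is beside 13.0% above and 8.70% below over all listed genes. Cdh15, the M-cadherin of muscle, had 266, 181 and 112 TPM in the Ctrl libraries against 139, 155 and 236 TPM in Kmt5b sKO. Fat1, a giant atypical cadherin, had 28.2, 42.3 and 37.2 TPM in the Ctrl libraries against 55.6, 53.4 and 50.4 TPM in Kmt5b sKO (adjusted p = 0.154, limma). All 17 cytoplasmic partners were tested, among them the subunits of the WAVE complex that binds protocadherins, and 0 were called, with 2 and 3 at an unadjusted p under 0.05 and a median log2 difference of 0.12 in the gene body. Of these 17 partners, 4 had all Kmt5b sKO libraries above all Ctrl libraries in the gene body and 1 had them below. The shares over all listed genes were again 13.0% and 8.70%.

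Of the 14 other genes in or beside the clusters, 9 were tested and 0 were called in either region, with 0 and 2 at an unadjusted p under 0.05. Over all 12451 tested genes these counts were 1369 and 1981. In the gene body, 5 of the 14 had all Kmt5b sKO libraries above all Ctrl libraries and 0 had them below, beside 13.0% and 8.70% over all listed genes. These were Taf7 and Slc25a2, which lie between the beta and the gamma genes on the opposite strand, and 3 gene models that span the clusters. Each model covers all 21 beta genes and the starts of all 21 gamma genes. The 3 models therefore count reads of the clusters again and are not separate neighbours. At the TSS regions of Taf7 and Slc25a2 the groups overlapped. Slc25a2, a mitochondrial ornithine carrier, had 22.6, 24.5 and 21.7 TPM in the gene body in the Ctrl libraries against 33.5, 30.0 and 32.5 TPM in Kmt5b sKO, a log2 difference of 0.47 (adjusted p = 0.125, limma). Taf7, a subunit of the transcription factor TFIID, had 16.1, 22.8 and 28.7 TPM in the Ctrl libraries against 41.3, 31.8 and 31.3 TPM in Kmt5b sKO, a log2 difference of 0.64 (adjusted p = 0.230, limma). Diaph1 and Hdac3, which follow the end of the gamma cluster on the opposite strand, had log2 differences of 0.02 and 0.10. The predicted genes Gm42416, Gm37013 and Gm37388 span the clusters with bodies of 857 to 887 kb on the plus strand, and with 8797 gene body reads for Gm42416 in Ctrl replicate 1, where the gamma cluster held 7999. Their own TSS regions held 0 or 1 read in every library.

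By the summed TSS value of the clustered genes over the 6 libraries, the most similar tested genes outside the clusters included Ampd1, Wdr35, Rubcn and Kif9, with Pearson correlations of 0.986 to 0.994 on the log2 scale. The points share their libraries and depth, and the values are a description only.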

How the data were processed

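PRO-seq libraries of 3 Ctrl and 3 Kmt5b sKO cultures were analysed. The authors used Trimmomatic 0.39 for trimming and STAR 2.6.1d for alignment to GRCm38, keeping 1 random position for reads with several. They removed duplicates with Picard 2.18.16, checked quality with FastQC 0.11.8 and counted sense reads of protein-coding isoforms, with 1 isoform listed per gene. The deposited TSS values are RPM and the deposited gene body values are TPM. One read was worth 0.189 to 0.660 RPM, and 100% of TSS values came out as whole reads. Here, genes on X and Y or with a mean under 0.5 in either region were left out, and log2(value + 0.5) of the remaining 12451 genes was fitted with limma 3.58.1 (eBayes with trend, genotype only). A call needed an adjusted p (Benjamini-Hochberg, over all tested genes) below 0.1. The methods of the study name TPM for both regions. With all TSS regions 400 nt long, RPM is the same quantity, and the planned test was kept.

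The members and gene lists were chosen with earlier results of these data known. Values in every library were given for single genes, C-type genes, the 3 highest TSS means per clustered family and called members, and genes outside the clusters most like the summed clustered signal were named, of which 1 is not reported here; Pcdhb8, Pcdhga1, Pcdhga2, Pcdhga3, Pcdhga4, Pcdhga12, Pcdhgb2 and the list genes given with values were named after their values were seen. Own stretches of gamma genes were the differences of TPM multiplied by length between neighbouring bodies, with an error of at most 1.32 reads per body. Alternatives were other pseudocounts, no filter, X and Y included, no trend, the replicate block, each library left out, quantile normalization, and edgeR 4.0.16 and DESeq2 1.42.0 on recovered reads. The fits were tested on simulated data. Replicate numbers did not pair the libraries. Counting limits cover counting error only.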

Additional observations from a re-analysis of the deposited data

How the results depend on the processing

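At the TSS region the count of protocadherins called was 0 under every limma setting that used all libraries and with DESeq2, 1 with edgeR on recovered reads (Pcdh1), and 0 to 1 when single libraries were left out, the 1 being Pcdhga2 without Ctrl replicate 2. In the gene body the count was 3 (Pcdh1, Pcdhb5, Pcdhb21), 1 with edgeR and 1 with DESeq2 on recovered reads (Pcdh1 in each), 0 with the replicate block, and 0 to 3 when single libraries were left out: 0 without Ctrl replicate 1 or any 1 Kmt5b sKO library, 2 without Ctrl replicate 2 (Pcdh1, Pcdhb16) and 3 without Ctrl replicate 3 (Pcdh1, Pcdhb5, Pcdhb19). Other pseudocounts, no filter, X and Y included, no trend and quantile normalization gave 2 or 3. The replicate block called 0 of all tested genes in either region. In the gene body, the fits without Ctrl replicate 1 or any 1 Kmt5b sKO library also called 0 of all tested genes. Same-numbered libraries did not deviate together (correlations of -0.034 to -0.163 at the TSS region and -0.153 to -0.329 in the gene body), so they share only a number. No setting called a change of the pausing index. The gamma gene body median of 0.07 (0.04 to 0.13 when single libraries were left out) was 0.31 with own stretches, 0.27 with quantile normalization as well and 0.29 with edgeR. Of these, all but the own stretches in themselves were chosen after seeing the data. With own stretches and single libraries left out, the median was 0.25 to 0.35 and 0 to 3 gamma genes were called. Whole bodies share most of their reads, which own stretches remove. The causes of the other changes were not tested. Over all tested genes, the gene body count of 372 was 748 with edgeR and 1295 with DESeq2, and the TSS count of 207 was 0 without the trend and 0 without the filter. The share of TSS calls that were higher was 56.0% and 43.6% after quantile normalization. Depth limits the beta promoters, with 56 to 157 reads per library over all of them, as well as the single genes near 0.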
